A study of Hordeum vulgare with 6 samples.

Results

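Genes with annotations that point to the secondary cell wall were followed in barley (*Hordeum vulgare*) spikelets with and without *HvMADS1*, an E-class MADS-box gene. The genes are *FLA11* (HORVU.MOREX.r3.3HG0235910, annotated as FASCICLIN-like arabinogalactan-protein 11, chromosome 3H by its identifier), *OMT1* (HORVU.MOREX.r3.3HG0330120, O-methyltransferase 1, chromosome 3H) and *MYB61* (HORVU.MOREX.r3.1HG0018590, myb domain protein 61, chromosome 1H). The 3 genes are 3 of the 26933 genes in the deposited table and were chosen with their *mads1* and WT values known. Their differences between the genotypes are therefore given as a description, with no p, and support nothing. The annotations are those of the study's own list of genes that were bound by HvMADS1 and changed in *mads1*, and all 605 genes of that list are in the table. The list was drawn from these same libraries, so a gene on it is no independent evidence of a direction. The files pair the identifiers with no coordinates.

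RNA-seq libraries came from 3 WT and 3 *mads1* samples under normal growth at stage W7.5, a step of the Waddington scale for the development of the barley inflorescence. WT was cv. Golden Promise, and *mads1* was a CRISPR-Cas9 knockout of *HvMADS1* made in it. Which of the study's knockout lines was sampled is not given in the sources used here. Each sample was pooled tissue of many plants, called spikelet in the labels and lemma and awn of central spikelets in the methods. The lemma is the outer bract of the floret, and the awn is its needle-like extension. Levels are FPKM, the fragments of a gene scaled to its length and to the size of the library, so levels of different genes can be set side by side. FPKM is the name in the headers and methods, but the values sum to nearly the same total in each library, as TPM would, so which of these per-length units they are is uncertain.

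Summed over genes, FPKM came to 939663 to 994495 per library, and the number of reads behind them is unknown. Over the 17996 genes tested, replicates of one genotype correlated at Pearson's r of 0.982 to 0.994 on log2(FPKM + 1), and libraries of different genotypes at 0.884 to 0.941. *HvMADS1* itself was not matched to an identifier and is not analysed here, and the labels of the knockout could not be checked by it. *HvSHI* and *HvDL*, regulators of awn and lemma, were present in every library, and their summed level was 138 to 160 FPKM in WT and 67.9 to 80.0 FPKM in *mads1*. WT replicate 1 stood apart from the other WT libraries in wall genes. The values without it are given below.

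Secondary walls are laid down inside the primary wall once a cell has stopped growing, in cells such as xylem vessels and fibres. They consist mainly of cellulose, xylan and lignin, and in grasses they stiffen organs such as stems, leaves and awns. NAC and MYB transcription factors switch on the genes for these polymers. In *Arabidopsis*, MYB61 acts in xylem and in other tissues, and in rice its counterpart promotes genes for cellulose synthesis. O-methyltransferase 1 of *Arabidopsis* is caffeic acid O-methyltransferase, which methylates precursors of lignin. FASCICLIN-like arabinogalactan-protein 11 of *Arabidopsis* is a glycoprotein of the cell surface made in stems, where secondary walls thicken.

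*MYB61*, the regulator of the group, was at 49.5, 38.0 and 37.3 FPKM in WT, against 7.06, 10.3 and 4.75 in *mads1*. The genotypes did not overlap, and the highest *mads1* library was at 27.6% of the lowest WT library. The means were 41.6 ± 6.88 FPKM in WT and 7.36 ± 2.77 FPKM in *mads1* (SD, n = 3 each), so 17.7% of the WT mean was left. On log2(FPKM + 1) the difference of *mads1* from WT was -2.39 (standard error 0.23 from limma). Of the 3 genes *MYB61* had the smallest difference and the smallest relative spread in WT, with a coefficient of variation of 16.5%.

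*OMT1*, the methyltransferase, was at 217, 74.5 and 84.2 FPKM in WT, against 2.12, 6.94 and 0.76 in *mads1*. The highest *mads1* library reached 9.31% of the lowest WT library, so the genotypes were again apart. The means were 125 ± 79.7 FPKM and 3.27 ± 3.25 FPKM (SD, n = 3 each), a ratio of 38.3 between WT and *mads1*. Single libraries put that ratio anywhere from 10.7 to 286. It was 24.3 without WT replicate 1 and 87.0 without *mads1* replicate 2. *OMT1* varied more between replicates than the other members in both genotypes, and its coefficient of variation was 63.6% in WT and 99.2% in *mads1*. The difference was -4.99 (standard error 0.56 from limma) on log2(FPKM + 1).

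*FLA11*, the cell surface protein, was at 215, 99.5 and 101 FPKM in WT, against 1.28, 3.81 and 0.91 in *mads1*. In the means, 138 ± 66.1 FPKM (SD, n = 3) stood against 2.00 ± 1.58 FPKM (SD, n = 3), so 1.44% of the WT level was left. The ratio of the means was 69.2, and single libraries put it from 26.1 to 236. It was 126 without *mads1* replicate 2, the highest of its genotype. On log2(FPKM + 1) the difference was -5.56 (standard error 0.39 from limma). The added pseudocount makes this difference smaller than the ratio of FPKM wherever values come near 1 FPKM, as for *FLA11* and *OMT1* in *mads1*.

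**Figure D1:**
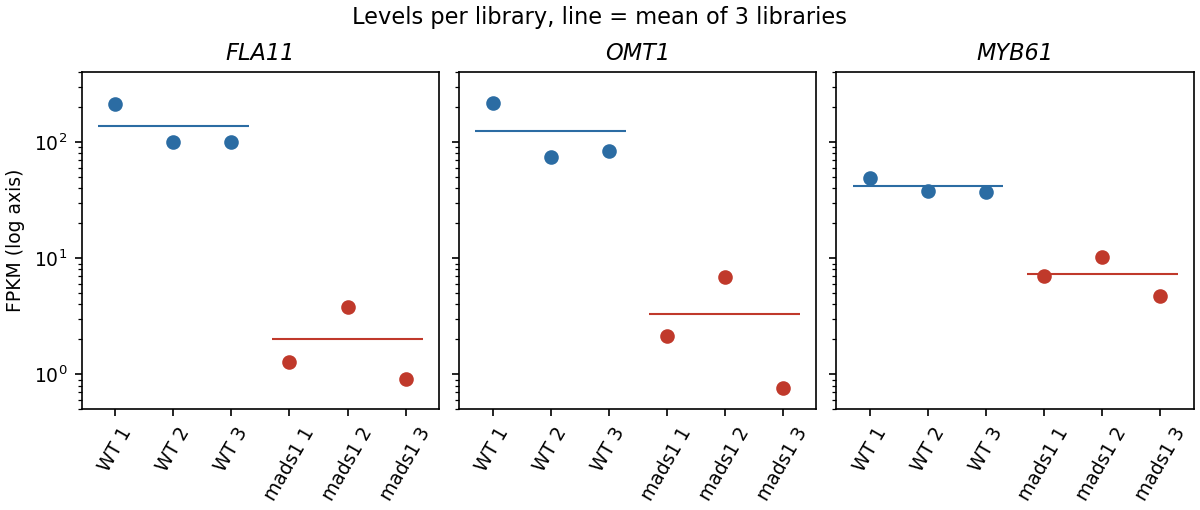
FPKM of *FLA11*, *OMT1* and *MYB61* in each library on a log axis, with WT libraries in blue, *mads1* libraries in red and a line at the mean of 3 libraries. In each panel the lowest WT point lies above the highest *mads1* point, and WT replicate 1 and *mads1* replicate 2 are the highest points of their genotypes.

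All 3 genes passed the filter on low values, which kept a gene if 3 or more of the 6 libraries reached 1 FPKM. *MYB61* was above it in 6 libraries and *FLA11* and *OMT1* in 5 each. In the limma fit over all genes, a call took a 1.5-fold change or more and an adjusted p (Benjamini-Hochberg) under 0.05, and all 3 are among the genes called lower in *mads1*. Over all genes tested, 14.5% were called lower, 6.6% higher and 21.1% in either direction. The 3 genes were chosen on this contrast, so their calls restate the choice and are no test of it. All *mads1* libraries lay below all WT libraries for 26.5% of the genes tested, and the genotypes did not overlap in either direction for 55.9%.

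The order of the 3 genes turned round between the genotypes. In every WT library *MYB61* was the lowest, and in every *mads1* library it was the highest. *FLA11* was 2.62 to 4.34 times as high as *MYB61* in the WT libraries. In the *mads1* libraries *MYB61* was 2.70 to 5.52 times as high as *FLA11*. For *OMT1* against *MYB61*, the FPKM ratio was 1.96 to 4.39 in WT and 0.16 to 0.676 in *mads1*. Between *FLA11* and *OMT1*, neither was the higher in every library of a genotype, and their difference was not tested. The ratio of *OMT1* to *FLA11* was 1.01, 0.749 and 0.834 in the WT libraries and 1.66, 1.82 and 0.835 in the *mads1* libraries.

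Ranked by FPKM among the genes tested, *FLA11* stood at percentiles 90.2 to 95.9 in the WT libraries and 4.33 to 20.1 in the *mads1* libraries. *OMT1* stood at percentiles 86.1 to 96.0 in WT and 3.63 to 29.4 in *mads1*. *MYB61* stood between percentiles 70.6 and 78.1 in WT and between 22.2 and 37.1 in *mads1*. *FLA11* and *OMT1* thus went from the upper to the lower part of the range, and *MYB61* moved across less of it. In *mads1* replicate 2, *OMT1* at percentile 29.4 lay within the *mads1* range of *MYB61*.

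**Figure D2:**
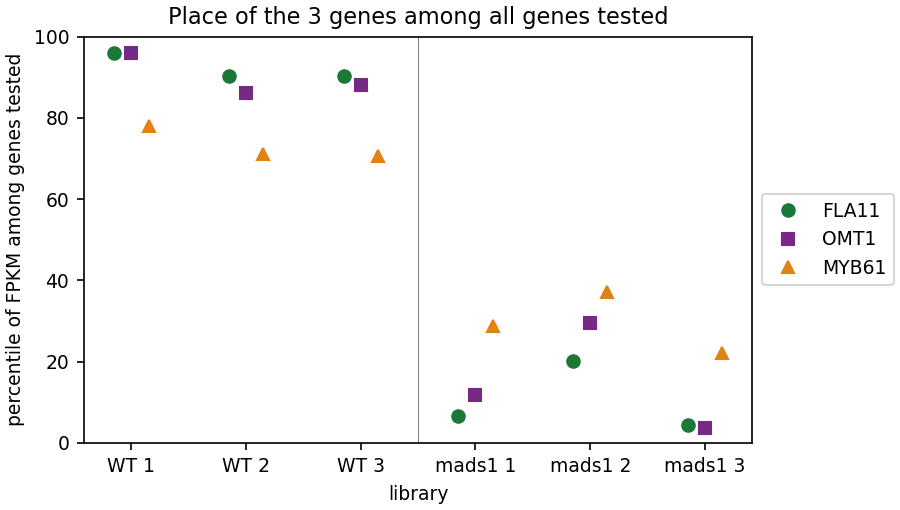
Percentile of FPKM among the 17996 genes tested (vertical axis) for *FLA11*, *OMT1* and *MYB61* in each library (horizontal axis). *MYB61* is the lowest of the 3 in every WT library and the highest in every *mads1* library.

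The spread between replicates was shared by the 3 genes. In WT, replicate 1 was the highest library for each of them, at 2.14 times the mean of the other WT libraries for *FLA11*, 2.74 times for *OMT1* and 1.32 times for *MYB61*. In *mads1*, replicate 2 was the highest and replicate 3 the lowest for each, and replicate 2 was 4.19, 9.13 and 2.16 times as high as replicate 3 for *FLA11*, *OMT1* and *MYB61*. The spread was widest for *OMT1*, the gene with the largest deviations in both genotypes, and narrowest for *MYB61*.

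The median gene did not share these deviations, though a small median can hide shifts in many genes. Over all genes tested, deviations of WT replicate 1 from the mean of its genotype correlated at 0.40 with those of *mads1* replicate 2. With those of *mads1* replicate 3 they correlated at -0.34. The median deviation of WT replicate 1 from the mean of WT replicates 2 and 3 was -0.03 on log2(FPKM + 1) over all genes tested. It was 1.09 for *FLA11*, 1.44 for *OMT1* and 0.39 for *MYB61*, at percentiles 99.5, 99.9 and 92.8 of the genes tested. For *mads1* replicate 2 against the mean of replicates 1 and 3, the median over all genes was -0.04, and the values were 1.20, 1.76 and 0.73 for the same genes. All of these are differences on log2(FPKM + 1). *HvSHI* and *HvDL* went the other way in WT. Replicate 1 was their lowest WT library, at 57.5 against 61.2 and 63.4 FPKM for *HvSHI* and at 80.6 against 96.4 and 96.5 FPKM for *HvDL*.

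The combination of WT replicate 1 highest, *mads1* replicate 2 highest and *mads1* replicate 3 lowest was found for 12.4% of all genes tested. Among the genes called lower the share was 31.6%, and in the study's list it was 34.4%. This combination was found for 22 of the 39 other secondary wall genes described below, or 56.4%. WT replicate 1 alone was the highest WT library for 38 of these 39 genes, against 33.9% of all genes tested. The share was 74.8% of the genes called lower and 77.2% of the study's list, from which the 39 were drawn. Other wall genes shared this. WT replicate 1 was the highest WT library for 13 of the 14 genes for wall loosening and pectin described below. The full combination was found for 42.9% of those 14. What in the WT replicate 1 sample differed was not tested. In bulk tissue, a difference in the share of cells that express a gene and one in RNA per cell cannot be told apart. This holds between replicates and between genotypes.

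**Figure D3:**
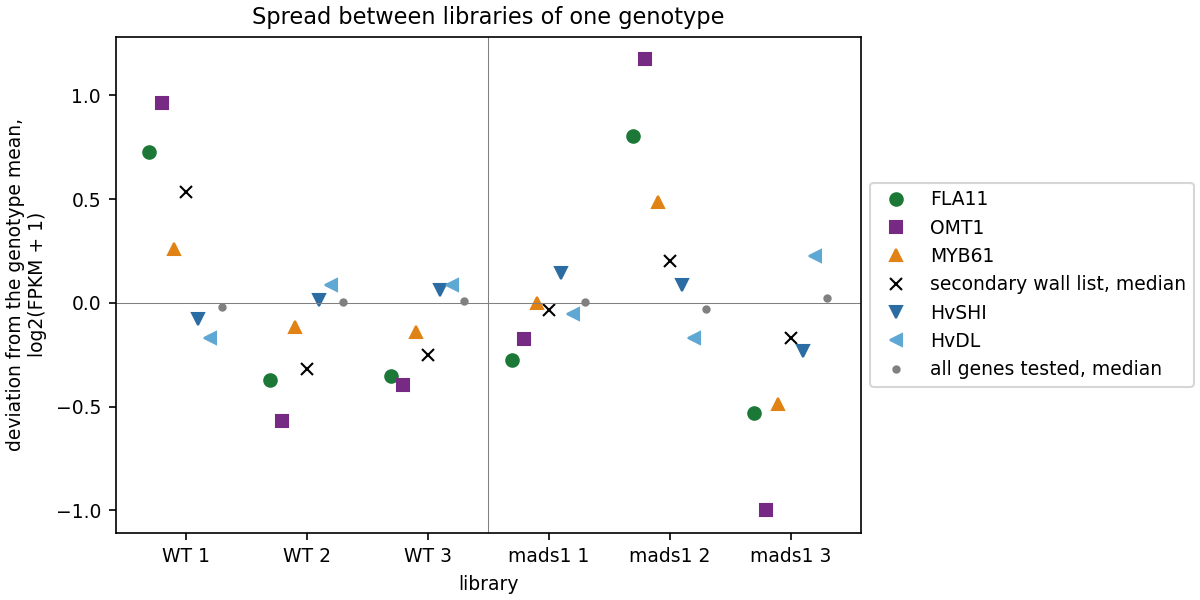
Deviation of each library from the mean of its genotype on log2(FPKM + 1), for *FLA11*, *OMT1*, *MYB61*, the median of the 39 other secondary wall genes, *HvSHI*, *HvDL* and the median of all genes tested. The 3 genes and the list lie above 0 in WT replicate 1 and *mads1* replicate 2, where *HvDL* lies below 0 and the median of all genes lies near 0.

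Without WT replicate 1 the differences on log2(FPKM + 1) were -5.20 for *FLA11*, -4.51 for *OMT1* and -2.26 for *MYB61*. Without *mads1* replicate 2 they were -5.96, -5.58 and -2.63 for the same genes. The direction was the same in each of the 6 fits that left out a library. *FLA11* had the second largest fall of all genes tested in each of them, and *OMT1* took places 3 to 8. These places depend on the pseudocount of 1. With a pseudocount of 0.1 and all libraries, *FLA11* took place 17 and *OMT1* place 34.

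Markers of other cell types were lower in *mads1* as well. Protodermal factor 1, a marker of the epidermis, was at 65.1, 36.3 and 32.6 FPKM in WT, against 2.20, 3.99 and 1.17 in *mads1*. Together with 3-ketoacyl-CoA synthase 6, an enzyme of cuticular wax synthesis, it summed to 45.6 to 87.6 FPKM in WT and 4.58 to 10.3 FPKM in *mads1*. For green tissue, phosphoribulokinase, an enzyme of the Calvin cycle, and carbonic anhydrase 2 summed to 98.3 to 139 FPKM in WT and 19.3 to 41.5 FPKM in *mads1*. None of the 4 markers was at 0 in any library, but carbonic anhydrase 2 was at 0.11, 1.01 and 0.34 FPKM in *mads1*. All 4 were called lower, beside 14.5% of all genes tested and 83.2% of the tested genes of the study's list. All 4 were highest in WT replicate 1 and in *mads1* replicate 2. WT replicate 1 was the highest WT library for 33.9% of all genes tested and 77.2% of the study's list. For *mads1* replicate 2 these shares were 29.9% and 50.2%. The markers too come from the study's list, and their part in the results for *FLA11*, *OMT1* and *MYB61* was not tested.

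Other genes counted here as secondary wall genes were taken from the study's list by words in their annotations. The groups are fasciclin-like proteins, lignin, cellulose, xylan and regulators. Such words do not separate secondary from primary walls, and the part of each gene in either wall was not tested. Besides the 3 members these groups hold 39 genes, of which 36 passed the filter and all 36 were called lower in *mads1*. The share called lower was 14.5% of all genes tested and 83.2% of the tested genes of the study's list, 450 of 541, from which the 39 were drawn. Of the 36, 11 passed the filter through the WT libraries alone, so they had to differ. None was called higher. In all 39 the 3 *mads1* values lay below the 3 WT values, as they did in 26.5% of all genes tested and in 86.3% of the study's list, 522 of 605. The median difference over the 39 was -1.37 on log2(FPKM + 1), and over the study's list -1.04. Over tested genes alone the median was -1.64 for the 36, -1.14 for the study's list and 0.05 for all genes. Since the study chose these genes for their change in these libraries, the counts describe them and support nothing. Without WT replicate 1, 31 of the 39 were called lower. The counts of the single groups that follow stand beside the same 14.5% and 83.2%. Among the 42 genes with the members included, *FLA11* had the largest difference, *OMT1* was next and *MYB61* took place 15. By the share of the WT mean left in *mads1*, which uses no pseudocount, *FLA11* took place 5, *OMT1* place 8 and *MYB61* place 20 from the lowest.

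The fasciclin-like group holds 3 genes besides *FLA11*, and their differences ranged widely. The gene annotated as FASCICLIN-like arabinogalactan 2 (HORVU.MOREX.r3.5HG0469340) was at 20.9, 7.61 and 6.25 FPKM in WT, against 0, 0.32 and 0.15 in *mads1*. FASCICLIN-like arabinoogalactan 7 (HORVU.MOREX.r3.5HG0490330) was at 111, 50.1 and 54.6 FPKM in WT, against 5.15, 5.82 and 3.36 in *mads1*. FASCICLIN-like arabinogalactan protein 16 (HORVU.MOREX.r3.5HG0517170), the gene of the group with the highest WT mean, had 59.4% of it left, with 149.7 ± 17.8 FPKM in WT and 88.9 ± 8.09 FPKM in *mads1* (SD, n = 3 each). Besides *FLA11*, all 3 were called lower, as were 83.2% of the tested genes of the study's list, and FASCICLIN-like arabinogalactan 2 passed the filter through WT alone. Differences in the group ran from -5.56 for *FLA11* to -0.74 on log2(FPKM + 1). The 4 genes shared WT replicate 1 and *mads1* replicate 2 as the highest libraries of each genotype.

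*OMT1* belongs to the lignin group, in which the 11 other genes were called lower, with a median of -1.89 on log2(FPKM + 1). Of the 11, 3 passed the filter through WT alone, and the share called lower in the study's list was 83.2%. A second gene with the annotation O-methyltransferase 1 (HORVU.MOREX.r3.7HG0711890, chromosome 7H) was at 335, 147 and 164 FPKM in WT, against 49.7, 70.2 and 43.5 in *mads1*. It was the higher of the pair in every library, and 25.3% of its WT mean was left in *mads1* against 2.61% for *OMT1*. How alike the sequences of the pair are was not analysed here, and the division of shared fragments between them depends on the authors' quantification. The same holds for the pairs annotated as laccase 17 and as myb domain protein 86.

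The other steps of the lignin pathway varied in how much was left. PHE ammonia lyase 1 (HORVU.MOREX.r3.6HG0596580), phenylalanine ammonia lyase, opens the pathway and was at 220, 98.4 and 93.6 FPKM in WT, against 5.19, 14.4 and 3.50 in *mads1*. This was the largest difference of the group after *OMT1*, at -4.08 on log2(FPKM + 1). For 4-coumarate:CoA ligase 1 (HORVU.MOREX.r3.7HG0740440), which activates the hydroxycinnamic acids, 37.7% of the WT mean was left. Cinnamoyl coa reductase 1 (HORVU.MOREX.r3.5HG0483980), which leads into the monolignols, had 21.5% left. The laccase 17 genes (HORVU.MOREX.r3.3HG0302570 and HORVU.MOREX.r3.4HG0388460), whose *Arabidopsis* counterpart polymerises monolignols in the wall, had means of 11.8 and 11.0 FPKM in WT. In *mads1* they did not pass 0.16 FPKM in any library. The smallest difference of the group was -0.96, in another PHE ammonia lyase 1 gene (HORVU.MOREX.r3.2HG0182080).

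Among the genes for cellulose, all 5 were called lower, beside 83.2% in the study's list, with a median of -0.78 on log2(FPKM + 1). The filter was passed through WT alone by 1 of them. One cellulose synthase family gene (HORVU.MOREX.r3.5HG0482670) was at 32.4, 11.4 and 12.8 FPKM in WT, against 0.25, 0.74 and 0.11 in *mads1*. Its order over the libraries was that of *FLA11* and *OMT1*. Another gene of the same annotation (HORVU.MOREX.r3.2HG0111610) was at 164, 124 and 127 FPKM in WT, against 85.4, 106 and 81.1 in *mads1*. The genotypes lay closer together in this gene than in the first, with 65.6% of the WT mean left against 1.95%.

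Of the 13 genes for xylan, 10 passed the filter, 4 of them through WT alone, and all 10 were called lower, beside 83.2% in the study's list. The median over the 13 was -1.19 on log2(FPKM + 1). TRICHOME BIREFRINGENCE-LIKE 22 (HORVU.MOREX.r3.7HG0667240), of a family that adds acetyl groups to wall polymers, had the largest difference of the group, at -3.98. The gene with the highest level was a UDP-glucose 6-dehydrogenase (HORVU.MOREX.r3.5HG0511770), an enzyme that makes UDP-glucuronic acid as a precursor of xylan and pectin. It was at 534, 267 and 264 FPKM in WT, against 79.4, 146 and 51.5 in *mads1*, so that WT replicate 1 and *mads1* replicate 2 were again the highest and *mads1* replicate 3 the lowest of its genotype.

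*MYB61* was the gene with the highest WT mean among the 8 regulators. The 7 others were called lower, beside 83.2% in the study's list, with a median of -2.13 on log2(FPKM + 1), and 2 of them passed the filter through WT alone. Walls Are Thin 1 (HORVU.MOREX.r3.3HG0220930), needed for secondary walls of fibres in *Arabidopsis*, was at 40.3, 23.1 and 27.3 FPKM in WT, against 0.96, 1.72 and 0.70 in *mads1*. Its difference was the largest of the genes grouped here as regulators, at -3.87, though its annotation names no transcription factor. The pair annotated as myb domain protein 86 had differences of -3.09 (HORVU.MOREX.r3.3HG0283250) and -2.77 (HORVU.MOREX.r3.1HG0079750). The counterpart of KNAT7 (HORVU.MOREX.r3.4HG0412370), a homeobox factor of secondary walls in *Arabidopsis*, had -2.13 with 4.06% left of its WT mean of 4.19 FPKM.

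Some regulators were low in every library. Myb domain protein 83 (HORVU.MOREX.r3.5HG0447760), in *Arabidopsis* a master switch of secondary walls that acts upstream of the polymer genes, was at 3.05, 1.21 and 1.33 FPKM in WT, against 0.07, 0.20 and 0.08 in *mads1*. Myb domain protein 20 (HORVU.MOREX.r3.6HG0612680) was at 2.88, 2.23 and 3.53 FPKM in WT, against 1.66, 0.94 and 1.06 in *mads1*. It was the 1 gene of the 39 in which WT replicate 1 was not the highest WT library. Myb domain protein 4 (HORVU.MOREX.r3.1HG0075320), a repressor of phenylpropanoid genes in *Arabidopsis*, had the smallest difference of the regulators, at -0.80.

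Genes for wall loosening and pectin, taken from the same study's list for comparison, were lower as well. Of 14 such genes, 13 passed the filter, 2 of them through WT alone, and 12 were called lower, beside 14.5% of all genes tested and 83.2% in the study's list, with a median over the 14 of -1.54 on log2(FPKM + 1). This median was close to the -1.37 of the secondary wall genes. Over the tested genes alone the medians were -1.59 for wall loosening and pectin and -1.64 for the secondary wall genes, in the opposite order. The difference between these lists was not tested. The gene annotated as expansin B2 (HORVU.MOREX.r3.1HG0056620), of a family that loosens growing primary walls, was at 276, 124 and 122 FPKM in WT, against 8.87, 22.5 and 8.07 in *mads1*. Galacturonosyltransferase 1 (HORVU.MOREX.r3.4HG0334870), which builds pectin, was tested and not called, at -0.56. It was under the limit on adjusted p but narrowly missed the 1.5-fold limit, and all its *mads1* values lay below its WT values.

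**Figure D4:**
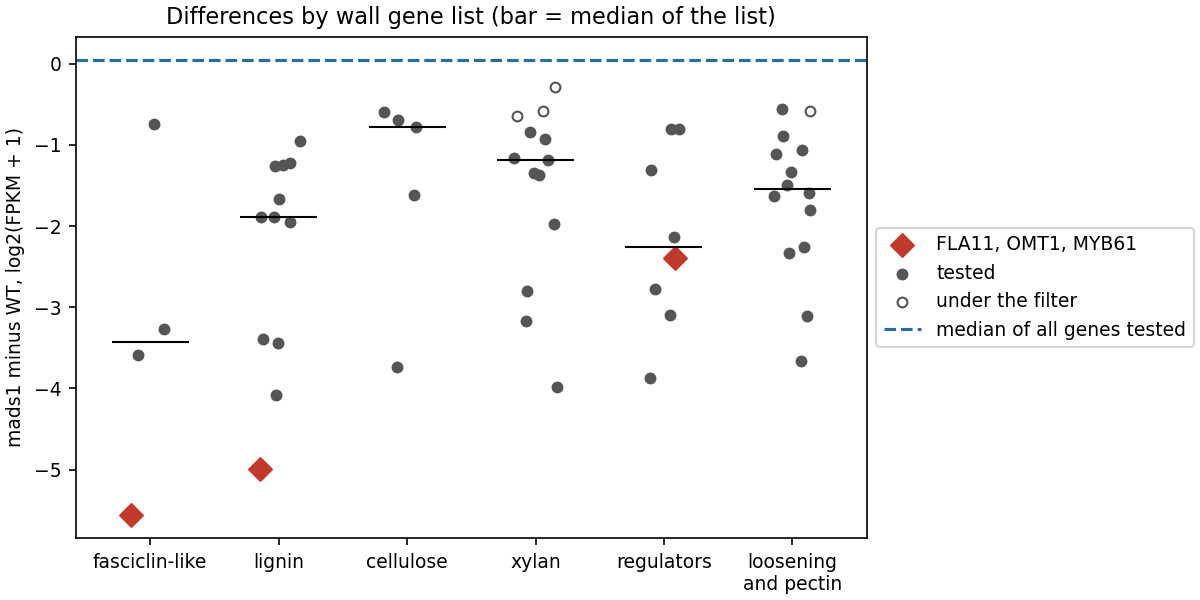
Difference of *mads1* from WT on log2(FPKM + 1) for each gene of the secondary wall groups and of the comparison group for wall loosening and pectin, with a bar at each median (members included), red diamonds for the members, open circles for genes under the filter and a dashed line at the median of all genes tested. Every gene lies below 0, and *FLA11* at -5.56 and *OMT1* at -4.99 are the lowest points of their groups.

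Genes with the most similar pattern were sought by Pearson's r of log2(FPKM + 1) over the 6 libraries, among the 17995 other genes tested. The genotype difference enters this r, and many genes reached a high value. It was at least 0.99 with 418 genes for *FLA11*, 311 genes for *OMT1* and 372 genes for *MYB61*. No p is given, since the 6 libraries fall into 2 genotypes.

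For *FLA11*, the annotated genes with the highest r were an S-adenosyl-L-methionine-dependent methyltransferase (HORVU.MOREX.r3.7HG0678040, r = 0.9993), a pectin acetylesterase (HORVU.MOREX.r3.3HG0329950, r = 0.9991) and a glycosyl hydrolase family gene (HORVU.MOREX.r3.4HG0397690, r = 0.9988). The pectin acetylesterase gene was at 22.2, 12.5 and 13.3 FPKM in WT, against 0.81, 1.61 and 0.46 in *mads1*. For *OMT1* they were PHE ammonia lyase 1 (HORVU.MOREX.r3.6HG0596580, r = 0.9990), a heavy metal transport family gene (HORVU.MOREX.r3.5HG0537970, r = 0.9989) and IQ-domain 13 (HORVU.MOREX.r3.3HG0305900, r = 0.9989). Annotations were at hand for the study's list alone, so the annotated genes named are the closest of that list. Among all 17995 other genes tested, the closest of the list took place 5 for *FLA11*, 4 for *OMT1* and 4 for *MYB61*. Within that list, *OMT1* had a gene of the lignin group, as set by words in the annotations, among its closest. *FLA11* and *MYB61* had none of that group among the 3 named for each. The annotation of the methyltransferase close to *FLA11* does not name its substrate, so a part in lignin is unknown. With so many genes at a high r, this contrast between the members was not tested.

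For *MYB61*, they were a Dormancy/auxin associated gene (HORVU.MOREX.r3.4HG0341070, r = 0.9996), a GDSL-like lipase (HORVU.MOREX.r3.3HG0286360, r = 0.9993) and chloroplast RNA-binding protein 31B (HORVU.MOREX.r3.7HG0689040, r = 0.9989). The Dormancy/auxin associated gene was among the high ones, at 841, 638 and 657 FPKM in WT, against 111, 154 and 71.5 in *mads1*. Of all genes tested, annotated or not, the closest were HORVU.MOREX.r3.2HG0184630 for *FLA11* (r = 0.9997, difference -1.45), HORVU.MOREX.r3.7HG0736940 for *OMT1* (r = 0.9997, difference -0.77) and HORVU.MOREX.r3.4HG0339730 for *MYB61* (r = 0.9999, difference -0.46). These too were highest in WT replicate 1 and *mads1* replicate 2 and lowest in *mads1* replicate 3, with far smaller differences on log2(FPKM + 1) than the members.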

How the data were processed

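RNA-seq was done on 3 WT and 3 *mads1* spikelet samples of pooled plants. Per the labels, reads were handled with Trimmomatic and RSEM 1.3.3, and the authors deposited one table of FPKM per gene, with no counts. The 6 library columns were all used. Identifiers are of the MOREX r3 annotation. No reference sequence or coordinate could be matched to them, so none is shown. *HvMADS1* was not matched and is not analysed here.

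Genes that reached 1 FPKM in 3 or more of the 6 libraries were fitted on log2(FPKM + 1) with limma 3.58.1 (trended eBayes) in R 4.3.3, tested on simulated data beforehand. A call needed a 1.5-fold change or more and an adjusted p (Benjamini-Hochberg over all genes tested) under 0.05. The authors' DESeq2 was not used, since FPKM are not counts. Named genes were the 3 members and those of the word lists and marker lists. For each member, the 3 genes of the study's list and the 1 gene of all with the highest r were also named. Members and lists were chosen with earlier results of these data known. P-values set the difference between genotypes against the spread between these pools, and the spread between single plants is not covered. Alternatives were other pseudocounts, filters, scalings, a fit without trend, a replicate block, adjusted p alone and leaving out each library.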

Additional observations from a re-analysis of the deposited data

How the results depend on the processing

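The differences of *FLA11*, *OMT1* and *MYB61* kept their direction under all 9 alternatives with all libraries, at -6.20 to -5.42, -5.54 to -4.86 and -2.54 to -2.33 on log2(value + pseudocount). Leaving out 1 library gave -5.96 to -5.20, -5.58 to -4.49 and -2.63 to -2.15. Their place among the largest falls moved more. With a pseudocount of 0.1, *FLA11* took place 17, *OMT1* place 34 and *MYB61* place 519, against 2, 4 and 260 with a pseudocount of 1. By adjusted p alone, 4011 genes were lower and 3768 higher, and a filter at 5 FPKM left 1868 lower and 769 higher, against 2607 and 1187 in the report. Leaving out 1 library gave 2380 to 2698 lower genes, 1022 to 1460 higher genes and 31 to 36 secondary wall genes. Of the secondary wall genes, 27 were lower with the filter at 5 FPKM, 34 under quantile normalization, 36 with the replicate block and 37 with no filter. Deviations of same-numbered libraries correlated at -0.07, -0.28 and 0.20, so the numbers were not taken to pair samples. Over all pairs of a WT and a *mads1* library, these correlations ran from -0.34 to 0.40. Rescaling and quantile normalization moved the median of all genes to at most 0.11. The read depth is unknown, so no limit could be set for values near 0.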
